A study of Mus musculus with 18 samples.

Results

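The Notch genes described here were 10 of the 52636 genes listed in the deposited expression tables: the receptors *Notch1*, *Notch2* and *Notch3*, the ligands *Dll1*, *Dll4*, *Jag1* and *Jag2*, the glycosyltransferase *Lfng*, and the basic helix-loop-helix genes *Hes1* and *Hes6*. They were taken by gene symbol, each symbol had 1 row in each table, and the rule used no expression value. RNA was sequenced from mouse colon in 18 libraries. Of these, 6 came from cells sorted by flow cytometry from crypts and 12 from whole crypts of 1 mouse each. In the Olfr78-GFP line, the coding exon of the olfactory receptor gene *Olfr78* is replaced by a GFP and tau-lacZ reporter, so that GFP marks the cells whose *Olfr78* promoter is active. The sorted groups were 2 samples of Epcam+ve/GFP-ve cells, both of 1 WT mouse and called GFP-ve samples below, and 4 pools sorted as Epcam+ve/GFP+ve, each combining a pair of mice. By the methods the sorted mice were 4 to 7 months old. Of the pools, 2 were heterozygous (HE), with 1 intact *Olfr78* allele and 1 reporter allele, and 2 were homozygous (KO), with the reporter on both. Crypts of the same line came from 2 WT and 5 Olfr78 KO mice. The remaining crypts came from the Vil1Cre/+-Olfr78fx line, in which Cre driven by the villin promoter removes a floxed *Olfr78* in the gut epithelium: 3 eControl mice, with genotypes HE/WT, WT/HO and HE/WT, and 2 eKnockout (eKO) mice, labelled HE/HO and WT/HO. No agent was given to any of these groups, and the ages of the mice donating crypts were not given in the sources used here.

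Notch signalling passes between neighbouring cells. A ligand of the Delta-like or Jagged family on one cell binds a Notch receptor on the next, the receptor is cut by ADAM proteases and gamma-secretase, and its freed intracellular part enters the nucleus and turns the DNA-binding protein Rbpj from a repressor into an activator. In the intestinal crypt this keeps stem cells undifferentiated and directs progenitors towards absorptive fate through *Hes1*, a repressor of *Atoh1*, whereas cells that escape the signal express *Atoh1* and Delta-like ligands and become secretory cells, among them goblet and enteroendocrine cells. *Hes6* encodes a relative of Hes1 that antagonises it in neural differentiation, and *Lfng* encodes an enzyme that adds sugars to Notch receptors and so alters which ligands they answer.

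Values are given as CP20M, reads scaled to a library total of 20 M. Whole reads could be recovered from them. The libraries held 1499836 to 2237486 reads on genes in the sorted groups, except homozygous pool 1 with 532704, and 6175306 to 10995342 in crypts. One read was therefore worth 37.5 CP20M in homozygous pool 1, 8.94 to 13.3 in the other sorted libraries and at most 3.24 in crypts. *Olfr78* itself, the target of the knockouts, stood at 4822 and 4401 CP20M in the heterozygous pools, 977 and 837 in the homozygous pools, 88 and 111 in WT crypts, and 7 to 42 in KO crypts. The paper reports homozygous mice as knockouts, by qRT-PCR on the coding exon and by RNAscope. The values here count reads over the whole gene. Which part of it the reads of the homozygous pools came from was not tested. *Olfr78* had 105, 61 and 124 CP20M in eControl crypts and 21 in eKO mouse 1, but 73 in the library labelled eKO mouse 2, among the controls. The genotype label of that library, WT/HO, is also that of an eControl mouse, so results on eKO crypts are given with and without it. The 6 enteroendocrine markers summed to 355269 to 1100963 CP20M in the GFP+ve pools against 12700 and 12926 in the GFP-ve samples, which carry the cell subtype label enteroendocrine too but lay near crypts (6003 to 14601). The 6 endothelial markers summed to 180 and 433 CP20M in the GFP-ve samples, 1740 and 1909 in the heterozygous pools and 1879 and 978 in the homozygous pools, with 2 to 4 of the 6 at 0 in each, *Cdh5* and *Tie1* in all of them. Their part in the results was not tested.

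RefSeq promoter windows (GRCm38.p6) were at hand for 9 of the 10 genes, and *Hes1* was the gene with none. The 250 bases before the start of transcription are printed for *Lfng*, because it held a match to GTGGGAA, the core that Rbpj recognises, searched on both strands, and for *Hes6*, because it is compared with *Hes1* below and held none. The match lies 109 bases before the *Lfng* start and is in capitals. It was the only match in 11 windows of these genes, and 5.42% of all 32851 mouse promoter windows of this length held one.
*Lfng*, chr5:140607091-140607340, plus strand: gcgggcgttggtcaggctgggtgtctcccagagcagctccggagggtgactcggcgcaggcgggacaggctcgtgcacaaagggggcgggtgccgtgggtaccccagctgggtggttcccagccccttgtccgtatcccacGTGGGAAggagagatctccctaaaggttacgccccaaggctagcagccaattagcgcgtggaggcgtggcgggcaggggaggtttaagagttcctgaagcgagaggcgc
*Hes6*, chr1:91414039-91414288, minus strand: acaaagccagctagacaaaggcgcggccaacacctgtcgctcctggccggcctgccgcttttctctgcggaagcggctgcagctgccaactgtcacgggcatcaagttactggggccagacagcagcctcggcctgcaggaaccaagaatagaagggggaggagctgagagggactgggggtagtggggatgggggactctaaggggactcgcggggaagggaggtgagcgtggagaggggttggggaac
A match is a description of these letters and not of binding.

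In a comparison between genes, levels were divided by the length of the merged exons (GENCODE M21) and are in CP20M per kb. In KO crypts, the largest group, *Hes1* stood first at 540 ± 138 (SD, n = 5), followed by *Hes6* at 159 ± 39.3, *Lfng* at 104 ± 6.16, *Jag1* at 99.0 ± 9.60 and *Notch1* at 84.8 ± 13.5. *Dll4* at 58.5 ± 22.2, *Dll1* at 46.1 ± 9.96 and *Notch2* at 36.4 ± 3.64 came next, and *Jag2* at 12.8 ± 1.45 and *Notch3* at 3.26 ± 1.24 were last. From *Lfng* down to *Notch2*, no neighbours in this order differed beyond their summed SDs between mice. Within every KO library, *Jag1* still stood above *Notch1*, *Notch1* above *Dll4* and *Dll1* above *Notch2*. *Lfng* and *Jag1*, and *Dll4* and *Dll1*, changed order between libraries. *Hes1*, *Hes6* and *Lfng* were the first 3 in this order in all 7 groups. The *Notch1* receptor was thus the most abundant of the receptors per length in every group. *Jag1* had the highest group mean of the ligands except in the GFP+ve pools, where that of *Dll4* was higher. In heterozygous pool 2 alone *Jag1* was above *Dll4*, at 59.6 against 38.2.

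**Figure D1:**
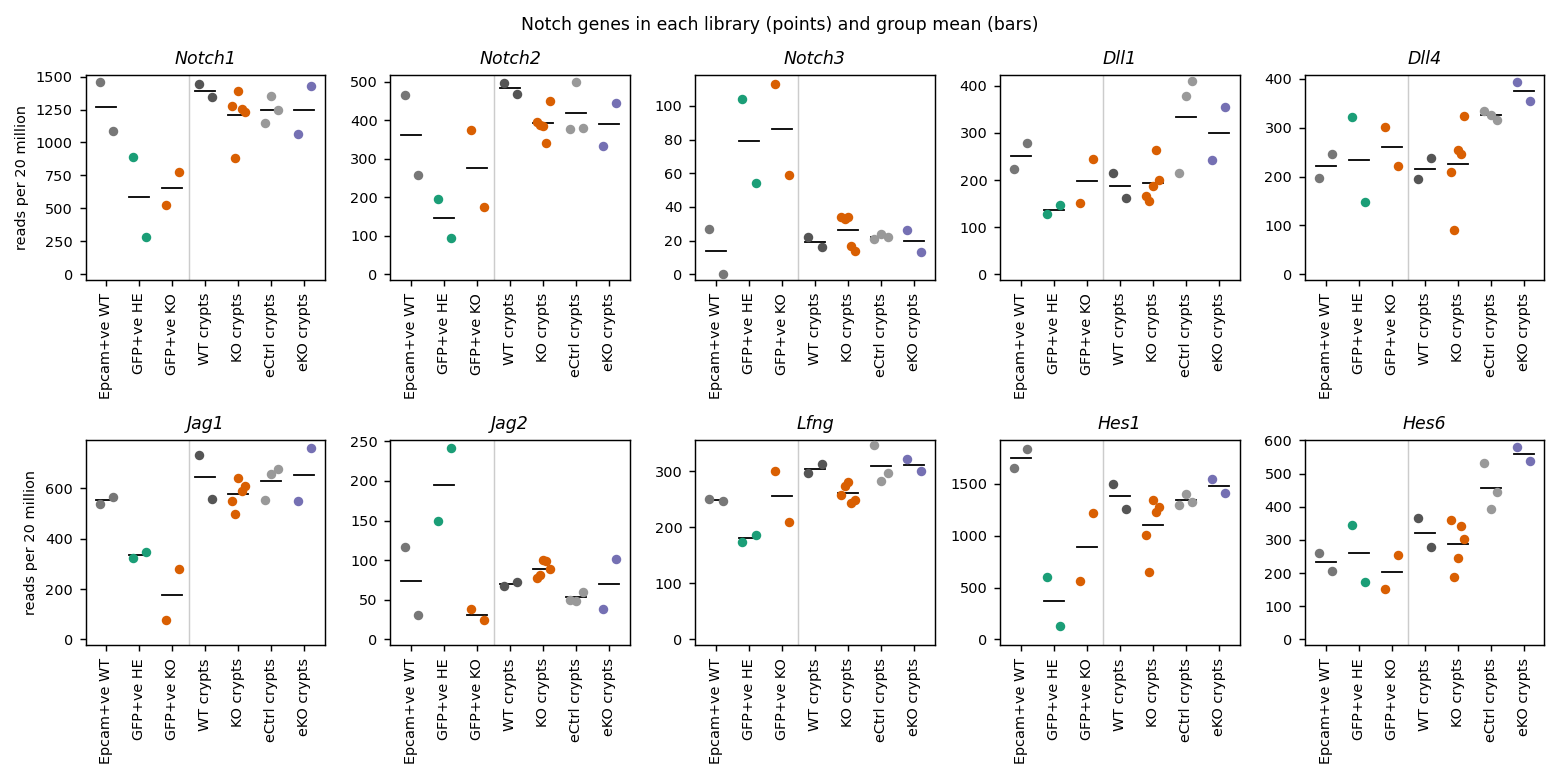
Scaled reads (reads per library total of 20 M, linear axis) of the 10 Notch genes in each of the 18 libraries. Points are libraries, bars are group means, and a grey line divides sorted cells from crypts. *Hes1* lay between 134 and 599 in the heterozygous pools and at 1654 and 1839 in the GFP-ve samples.

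The first comparison set the heterozygous GFP+ve pools against Epcam+ve cells of 1 WT mouse. That mouse carries no reporter, so the GFP-ve gate could not remove cells expressing *Olfr78*, which stood at 135 and 21 CP20M in its samples. Genotype and mouse differ along with cell type and cannot be told apart from it. *Hes1* (ENSMUSG00000022528, chromosome 16, 30064384 to 30067796, plus strand, GRCm38), the Notch target and repressor of secretory fate, had 1654 and 1839 CP20M in the GFP-ve samples and 599 and 134 in the heterozygous pools, from 185, 179, 52 and 10 reads. Both heterozygous pools lay below both GFP-ve samples, with pool 2 far below pool 1. The log2 fold change was -2.57 (SE 0.56, 95% interval -3.86 to -1.28), with an adjusted p of 0.0137 from limma. Of the 10 genes it was the only one past the adjusted p of 0.05 of limma, where 23.8% of all 16355 genes tested were called, 12.5% higher and 11.3% lower. At an unadjusted p under 0.05 were 5 of the 10 genes, beside 37.2% of all genes. Without heterozygous pool 2 the log2 fold change of *Hes1* was -1.53 (adjusted p = 4.4e-05) and without heterozygous pool 1 -3.61 (adjusted p = 3.8e-10), in limma fits that take the lone pool to vary like the other group. The adjusted p was 8.8e-04 with edgeR, 0.0691 with DESeq2 and 0.0936 with limma without a trend, so the call was lost with both of the latter.

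*Notch1* and *Notch2*, the receptors of crypt cells, had their lowest value in heterozygous pool 2, as *Hes1* had. *Notch1* (ENSMUSG00000026923, chromosome 2, 26457903 to 26516663, minus strand) had 1457 and 1089 CP20M in the GFP-ve samples and 887 and 281 in the heterozygous pools, a log2 fold change of -1.31 (SE 0.47, adjusted p = 0.0779 from limma). *Notch2* (ENSMUSG00000027878, chromosome 3, 98013527 to 98150361, plus strand) had 465 and 257 CP20M in GFP-ve samples against 196 and 94 in heterozygous pools, a log2 fold change of -1.28 (SE 0.51, adjusted p = 0.103 from limma). For both receptors the groups did not overlap, but neither was past the threshold of limma. Without heterozygous pool 2 the log2 fold change of *Notch1* was -0.50 (adjusted p = 0.186 from limma), and without heterozygous pool 1 it was -2.13 (adjusted p = 3.0e-06 from limma). *Notch1* was past the threshold with edgeR (adjusted p = 0.0383), which called 27.4% of all genes. Without heterozygous pool 1, *Notch2* and *Jag2* were called as well as *Notch1* and *Hes1*, where 32.8% of all genes were.

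*Notch3* (ENSMUSG00000038146, chromosome 17, 32120820 to 32166852, minus strand), a receptor best known in vascular smooth muscle, was the rarest of the 3 receptors. It had 27 and 0 CP20M in the GFP-ve samples, 104 and 54 in the heterozygous pools and 113 and 59 in the homozygous pools. These values rested on 3 and 0, 9 and 4, and 3 and 5 reads, and all 4 GFP+ve pools lay above both GFP-ve samples. The ratio of the summed rates was 5.60 for heterozygous pools to GFP-ve samples (95% interval 1.54 to 30.6) and 4.95 for homozygous pools (1.19 to 29.0), intervals that cover counting error only. The log2 fold changes were 2.15 (SE 0.81, adjusted p = 0.0910) and 2.26 (SE 1.04, adjusted p = 0.298) by limma, past the threshold in neither. *Notch3* passed the filter only through the GFP+ve pools, where it is high, so these values describe it and are no support for the direction. Both comparisons share the GFP-ve samples. The 6 pericyte and smooth muscle markers summed to 136 and 153 CP20M in the GFP-ve samples, 54 to 152 in the heterozygous pools and 0 to 188 in the homozygous pools, with all 6 at 0 in 1 homozygous pool. Whole crypts had 13 to 34 CP20M of *Notch3*, below the filter of 40.

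The ligands did not move together. *Jag1* (ENSMUSG00000027276, chromosome 2, 137081456 to 137116644, minus strand) had 537 and 566 CP20M in the GFP-ve samples and 323 and 347 in the heterozygous pools, a log2 fold change of -0.70 (SE 0.30, adjusted p = 0.123 from limma). The groups did not overlap and the replicates of each were close, but the difference was short of the threshold. *Jag2* (ENSMUSG00000002799, chromosome 12, 112907819 to 112929776, minus strand) had 117 and 31 CP20M in GFP-ve samples (13 and 3 reads) against 150 and 241 in heterozygous pools (13 and 18 reads) (log2 fold change 1.47, SE 0.67, adjusted p = 0.147 from limma). *Dll1* (ENSMUSG00000014773, chromosome 17, 15367354 to 15376872, minus strand), a ligand of secretory progenitors, had a log2 fold change of -0.82 (adjusted p = 0.209 from limma) with 11 reads in each heterozygous pool. *Dll4* (ENSMUSG00000027314, chromosome 2, 119325784 to 119335962, plus strand), the other Delta-like ligand of the crypt, had 197 and 247 CP20M in the GFP-ve samples and 323 and 147 in the heterozygous pools, so that the groups overlapped. Its log2 fold change was -0.01 with a 95% interval of -1.12 to 1.09, and its sign turned with the scaling.

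*Lfng* (ENSMUSG00000029570, chromosome 5, 140607320 to 140615545, plus strand) had 251 and 247 CP20M in the GFP-ve samples and 173 and 187 in the heterozygous pools (log2 fold change -0.45, SE 0.40, adjusted p = 0.465 from limma). *Hes6* (ENSMUSG00000067071, chromosome 1, 91411483 to 91414038, minus strand) had 260 and 206 CP20M in GFP-ve samples against 346 and 174 in heterozygous pools. The groups overlapped, and the log2 fold change of 0.08 had a 95% interval of -0.96 to 1.13, wide enough to hold changes of close to 2-fold in either direction. In all, 6 of the 10 genes lay lower and 2 higher in both heterozygous pools than in both GFP-ve samples, where 33.1% and 30.4% of all genes tested did.

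The ratio of *Hes6* to *Hes1* within a library does not depend on its scaling. It was 0.157 and 0.112 in the GFP-ve samples, 0.578 and 1.30 in the heterozygous pools and 0.268 and 0.210 in the homozygous pools. In crypts it ran from 0.183 to 0.358 in the Olfr78-GFP line and from 0.280 to 0.411 in the Vil1Cre/+-Olfr78fx line. The heterozygous pools had the highest ratios of all libraries, and no other group reached them. Their ratios rested on few reads, 30 of *Hes6* over 52 of *Hes1* in pool 1 and 13 over 10 in pool 2. In homozygous pool 1 the reads were 4 over 15. The exact permutation test (two-sided) gave p = 0.333 for heterozygous pools against GFP-ve samples and p = 0.333 for homozygous against heterozygous pools, the smallest value that 2 against 2 libraries allow. For KO against WT crypts the exact p was 0.571, where 0.0952 is the smallest value allowed.

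**Figure D2:**
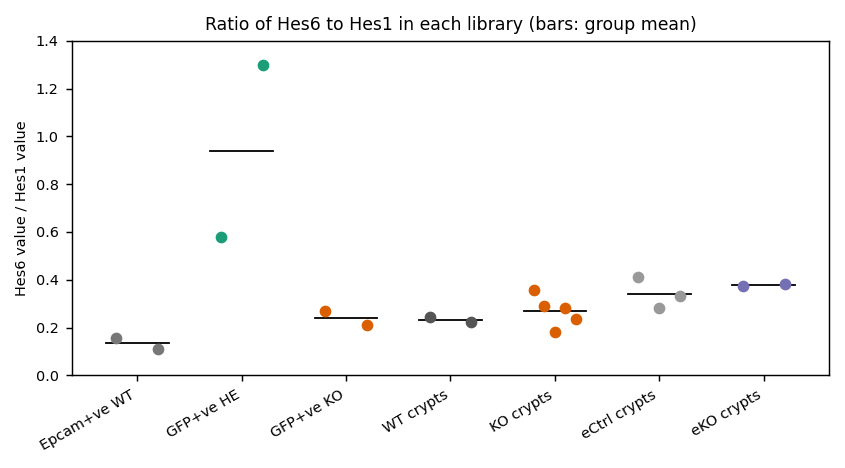
Ratio of the *Hes6* value to the *Hes1* value (no unit, linear axis from 0) in each library, with bars at the group means. The heterozygous pools stand at 0.578 and 1.30, and every other library lies at or below 0.411.

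Summed markers of goblet, stem and cycling cells moved with *Hes1* within each GFP+ve genotype. The 6 goblet cell markers summed to 348170 and 297569 CP20M in the GFP-ve samples, 148068 and 67182 in heterozygous pools 1 and 2, and 62364 and 332762 in homozygous pools 1 and 2. The 4 stem cell markers summed to 2353 and 2479, 1176 and 576, and 602 and 1187 CP20M in the same order. The cycling markers *Mki67* and *Top2a* summed to 19899 and 18564 CP20M in the GFP-ve samples, 5605 and 1495 in the heterozygous pools and 4506 and 6043 in the homozygous pools. Within each GFP+ve genotype the pool with less *Hes1* was thus the pool with lower goblet, stem and cycling sums. The colonocyte sum was lower in that pool too. The sum of 3 tuft markers went the other way, at 139 and 162 CP20M in heterozygous pools 1 and 2. In homozygous pools 1 and 2 it was 339 and 163. The enteroendocrine sum was also higher in the pool with less *Hes1*. It was 849291 and 1100963 CP20M in heterozygous pools 1 and 2, and 596394 and 355269 in homozygous pools 1 and 2. The part of these cell types in the *Hes1* values was not tested, and fewer cells of a type and less RNA per cell cannot be told apart in such bulk samples.

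The wider pathway list held 64 other genes, of which 50 were tested, 8 were called higher and 5 lower in the heterozygous pools, beside 12.5% and 11.3% of all genes tested. The median log2 fold change over the 50 was 0.08, beside -0.05 over all genes tested, and stays so with *Gfi1* and *Rbpjl*, at 0 in both pools, put at their bounds. *Dner*, a ligand-like transmembrane protein of neurons, had 18 and 0 CP20M in the GFP-ve samples and 254 and 387 in the heterozygous pools (log2 fold change 4.27, SE 0.70, adjusted p = 0.00420 from limma). It passed the filter only through the heterozygous pools, where it is high, so these values describe it and are no support for the direction. Among genes of the nuclear complex and corepressors, *Maml3*, a coactivator that docks on Notch and Rbpj, rose from 850 and 514 to 2313 and 2307 CP20M. The corepressors *Spen*, *Tle1* and *Tle2* rose as well, 3 of 10 tested with none called lower, by log2 fold changes of 1.12, 1.29 and 2.98. *Rbpj* itself had 492 and 391 CP20M in the GFP-ve samples and 668 and 747 in the heterozygous pools and was not called.

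Of the negative regulators, *Numbl*, a relative of the Notch inhibitor Numb, rose by 2.76 and the ubiquitin ligase gene *Dtx3* by 3.52 on the log2 scale. Both passed the filter only through the heterozygous pools, where they are high, so these rises are no support for the direction. *Nrarp*, a feedback inhibitor that Notch induces, had 447 and 504 CP20M in the GFP-ve samples and 265 and 27 in the heterozygous pools (log2 fold change -2.26, adjusted p = 0.0789 from limma). The protease gene *Furin*, whose product cuts the receptor during its maturation, rose by 0.85. *Neurl1b*, which serves the endocytosis of ligands, fell by 1.42.

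All 3 of the secretory fate factors that were tested were called lower, where 11.3% of all genes tested were. *Atoh1*, the master regulator of secretory fate that *Hes1* represses, had 1064 and 1264 CP20M in the GFP-ve samples and 346 and 174 in the heterozygous pools, a log2 fold change of -2.19 (SE 0.36, adjusted p = 0.00431 from limma). *Spdef*, a factor of goblet cell maturation, fell by 1.66 on the log2 scale. *Gfi1* had no read in either heterozygous pool and 78 CP20M on average in the GFP-ve samples, so that it was at least 2.09-fold lower against the value of 3 reads per library. *Rbpjl*, a relative of *Rbpj* also at 0 in the heterozygous pools, was at least 1.44-fold lower. *Gfi1* and *Rbpjl* passed the filter only through the GFP-ve samples, where they are high, so their falls are no support for the direction. The fourth factor, *Neurog3*, had 24 and 0 CP20M in the heterozygous pools, from 2 reads, and none of the 7 other Hes and Hey genes passed the filter.

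**Figure D3:**
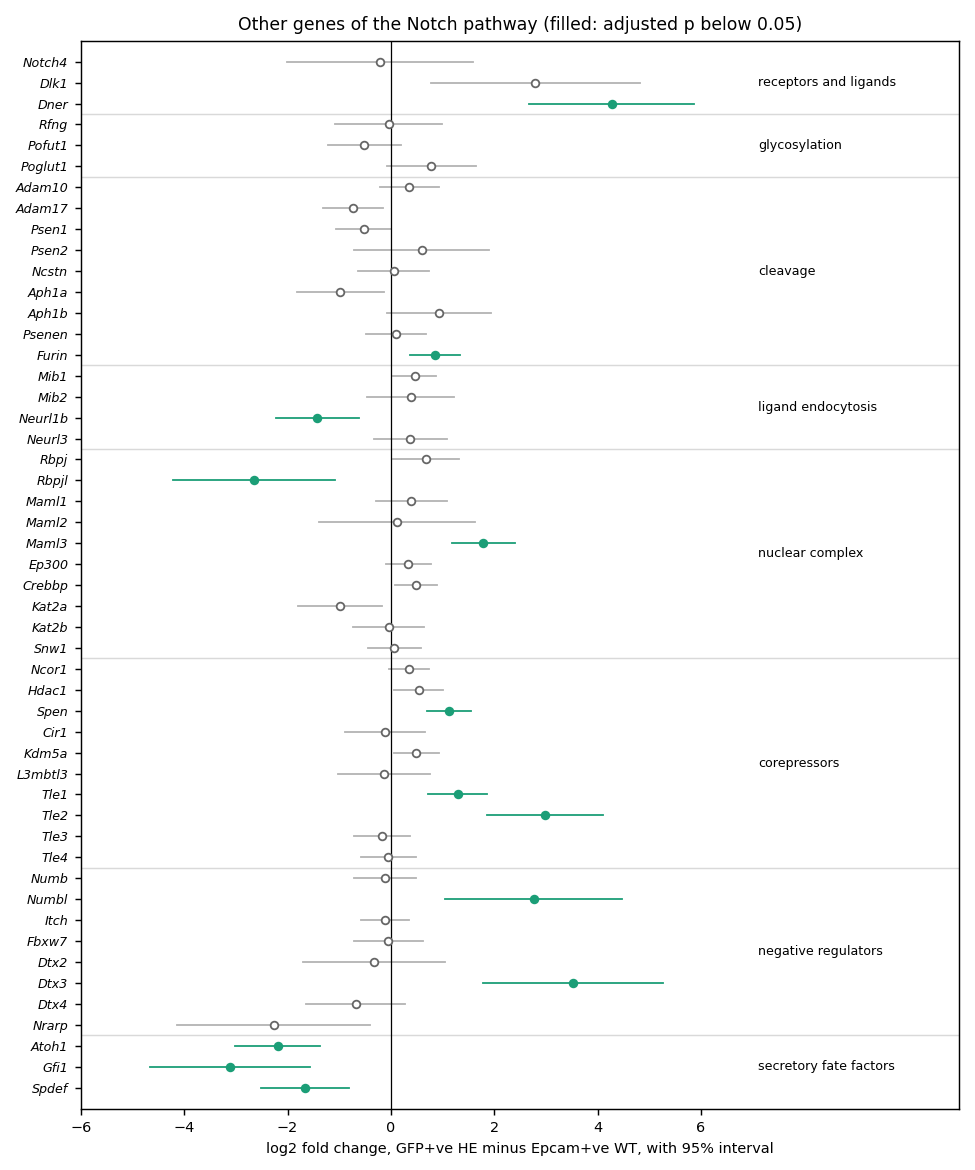
Log2 fold change (horizontal axis, heterozygous pools minus GFP-ve samples) with its 95% interval for the 50 tested genes of the wider Notch pathway, grouped by role. Filled points are the 13 genes past an adjusted p of 0.05, with *Dner* at 4.27 the highest. The fitted values of *Gfi1* and *Rbpjl*, which had no read in the heterozygous pools, depend on the pseudocount. *Dner*, *Numbl* and *Dtx3* passed the filter only through the heterozygous pools and *Gfi1* and *Rbpjl* only through the GFP-ve samples.

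The next comparison asked what the loss of *Olfr78* does to the GFP+ve cells. No gene of the 15961 tested was called by limma between homozygous and heterozygous pools (percent called 0), and edgeR called 0 too, with 591 at an unadjusted p under 0.05 by limma and 7 called by DESeq2. Of the 10 Notch genes 9 were in the filter of the criterion of the methods, over 40 CP20M in all 4 pools, and none of the 9 was past it. *Jag2*, below 40 in both homozygous pools, was outside that filter. In this criterion group means stand apart by over 2 times their average SD at a fold over 1.5, and 13.2% of the 11892 genes in its filter met it. *Hes1* had 564 and 1221 CP20M in the homozygous pools against 599 and 134 in the heterozygous pools. The groups overlapped, and the log2 fold change was 1.51 (SE 0.69, 95% interval -0.08 to 3.09, adjusted p = 0.933 from limma). It was 0.46 without heterozygous pool 2 and 2.55 without heterozygous pool 1.

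*Jag2* was the 1 gene of the 10 at an unadjusted p under 0.05, beside 3.7% of all genes, at 0.0221 (log2 fold change -2.31, SE 0.83, adjusted p = 0.933 from limma). It had 38 and 24 CP20M in the homozygous pools, from 1 and 2 reads, against 150 and 241 in the heterozygous pools, from 13 and 18 reads. It passed the filter of the test only through the heterozygous pools, where it is high, so the filter favoured this direction and the test is no support for it. The ratio of the summed rates was 0.139, with a 95% interval of 0.0272 to 0.446 that covers counting error only. The GFP-ve samples, at 117 and 31 CP20M, overlapped the homozygous pools. *Jag1* had 76 and 279 CP20M in the homozygous pools, from 2 and 24 reads, below the 323 and 347 of the heterozygous pools (log2 fold change -1.13, SE 0.68, adjusted p = 0.933 from limma). Without homozygous pool 1, the shallowest library, the log2 fold change of *Jag1* was -0.25. *Lfng* had 301 and 210 CP20M in the homozygous pools, above both heterozygous pools, a difference of 2.03 times the average SD but with a log2 ratio of means of 0.51, under the fold of the criterion (limma: log2 fold change 0.46, SE 0.55). In all, 2 genes lay lower (*Jag1* and *Jag2*) and 2 higher (*Dll1* and *Lfng*) in both homozygous pools than in both heterozygous pools, where 25.5% and 8.73% of all genes tested did. The median log2 fold change was 0.29 over the 10 genes and -0.22 over all genes, and the latter became -0.06 after rescaling by the median of ratios. All 51 pathway genes tested were uncalled.

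Against the GFP-ve samples, the homozygous pools had less *Hes1* (log2 fold change -1.06, SE 0.41, adjusted p = 0.256 from limma) and less *Jag1* (-1.83, SE 0.63, adjusted p = 0.233 from limma), both without overlap between the groups. Without overlap lay 3 genes lower (*Notch1* was the third) and *Notch3* higher, of 9 tested, where 35.5% and 19.4% of all genes did. None of the 9 was called, where 0.735% of all genes were, and *Jag2* did not pass the filter. These comparisons again share the GFP-ve samples with those of the heterozygous pools. With homozygous pool 2 left out, so that the shallow pool 1 stood alone, *Notch1*, *Jag1* and *Hes1* were called, where 45.3% of all genes were, and *Hes1* then had a log2 fold change of -1.61. Homozygous pool 2 also differed from pool 1 in the secretory factors, with 1221 against 38 CP20M of *Atoh1* and 860 against 76 of *Spdef*.

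**Figure D4:**
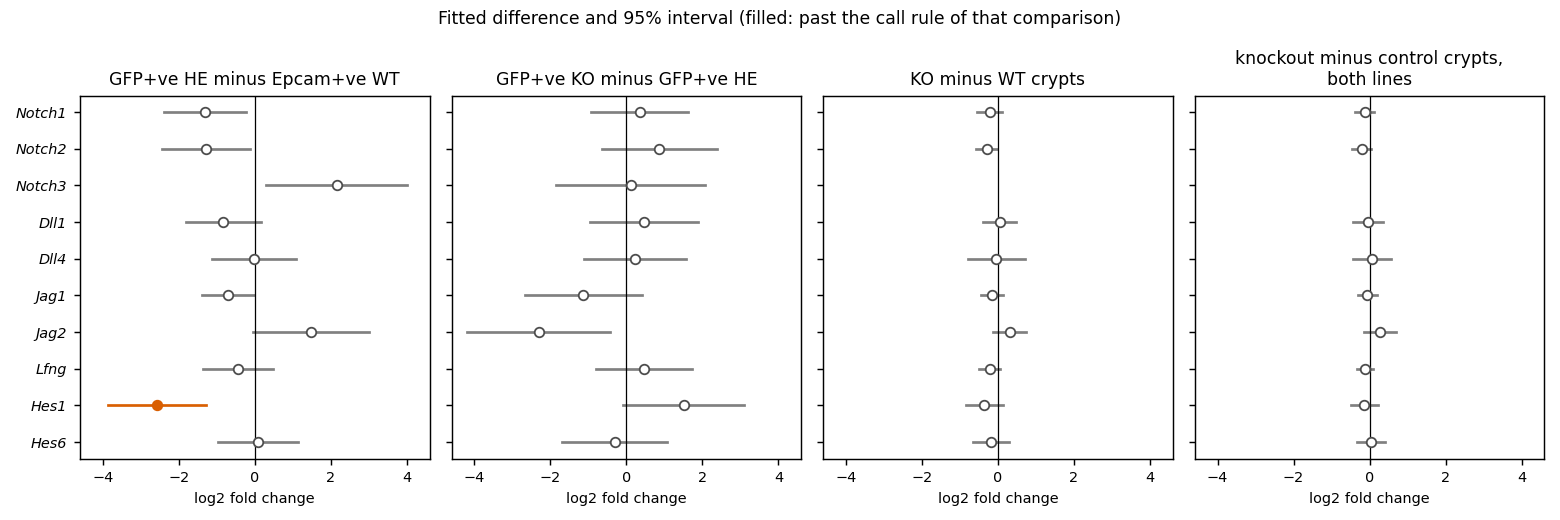
Log2 fold change (horizontal axis) and 95% interval of each Notch gene in 4 comparisons. Filled points are past the call rule of that comparison, which only *Hes1* was, at -2.57 in heterozygous pools against GFP-ve samples, and *Notch3* is missing from the crypts because it was below the filter.

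In whole crypts the question was whether loss of *Olfr78* alters Notch genes across the epithelium. Crypts were called at an adjusted p of at most 0.2 and a fold beyond 1.5. None of the 9 genes tested was called between KO and WT crypts of the Olfr78-GFP line, where 9.48% of 15975 genes were. *Hes1* had 1497 and 1261 CP20M in WT crypts and 1003, 651, 1341, 1225 and 1279 in KO crypts, and the groups overlapped (log2 fold change -0.36, SE 0.22, 95% interval -0.85 to 0.12, adjusted p = 0.323 from limma). KO mouse 2, with the fewest reads of the crypt libraries, was the lowest of the 5 KO mice for 6 of the 10 genes, *Hes1* among them. Without it the log2 fold change of *Hes1* was -0.19.

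*Notch2* had the lowest p in these crypts. It had 498 and 469 CP20M in WT crypts and 395, 389, 385, 341 and 451 in KO crypts, every KO mouse below both WT mice, for a log2 fold change of -0.30 (SE 0.13, adjusted p = 0.163 from limma) that was short of the fold. *Lfng* lay lower in every KO mouse too, at 244 to 280 CP20M against 296 and 313 (log2 fold change -0.22, SE 0.13, adjusted p = 0.309 from limma). *Jag2* lay higher, at 78 to 100 CP20M against 67 and 73 (log2 fold change 0.31, SE 0.20, adjusted p = 0.348 from limma). These were 2 lower and 1 higher without overlap, beside 13.1% and 18.2% of all genes tested. All 9 log2 fold changes lay between -0.36 and 0.31, with 95% intervals that reached from -0.85 to 0.74.

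Of the 48 other pathway genes tested, 3 were called in KO crypts, all higher, where 7.95% of all genes were called higher: the receptor *Notch4* (log2 fold change 0.70, SE 0.21, adjusted p = 0.0617 from limma), *Dtx3* (0.92, SE 0.26, adjusted p = 0.0528) and *Gfi1* (0.69, SE 0.24, adjusted p = 0.101). *Notch4* had 72 and 86 CP20M in WT crypts and 110 to 169 in KO crypts, without overlap. *Dtx3* had 35 and 19 CP20M in WT crypts and 50 to 70 in KO crypts. It passed the filter only through the KO crypts, where it is high, so its call is no support for the direction. None of the 3 was called when the pseudocount was 40, where 5.35% of all genes were. The same held when all libraries of the table entered one fit, where 0.113% of all genes were called. None rose past the threshold in the crypts of both lines combined, where 0.0243% of all genes were called.

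In the Vil1Cre/+-Olfr78fx line limma called no gene (percent called 0 of 15401 genes, with 127 or 0.825% at an unadjusted p under 0.05), edgeR called 0, DESeq2 called 6 and the replicate block 13, none of them a Notch gene of the 10. *Hes1* had 1295, 1405 and 1328 CP20M in eControl crypts and 1546 and 1408 in eKO crypts, the second being the library labelled eKO mouse 2 (log2 fold change 0.14, SE 0.14, adjusted p = 1.00 from limma). *Hes6* had 532, 394 and 443 CP20M in the controls and 580 and 537 in eKO crypts, both higher, with a log2 fold change of 0.30 (SE 0.18, 95% interval -0.13 to 0.72, adjusted p = 1.00 from limma). Without the library labelled eKO mouse 2 the log2 fold changes were 0.20 for *Hes1* and 0.35 for *Hes6*, with no gene of the 10 called. *Dll4*, *Hes1* and *Hes6* lay higher and none lower in both eKO crypts than in all eControl crypts, where 7.58% and 2.79% of all genes did, and eKO mouse 1 alone also lay above all controls for these 3.

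With both lines in one fit, and the line as a covariate, none of the 9 genes was called, where 0.0243% of 16447 genes were. *Hes1* had a log2 fold change of -0.14 (SE 0.17) and *Notch2* of -0.21 (SE 0.12, adjusted p = 0.664 from limma). Without the library labelled eKO mouse 2 these values were -0.17 and -0.30. The difference of the knockout effect between the lines was called for 0 of the 9 genes and for 0.0122% of all genes, with the lowest unadjusted p of the 9 at 0.139. Without the library labelled eKO mouse 2 it was called for 0 of the 9 genes and for 214 genes of all, 1.31%, with the lowest adjusted p of the 9 at 0.233 for *Jag2* (limma).

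GFP-ve samples and WT crypts differ in sorting and in the RNA kit, so the groups cannot be told apart from the preparation. None of the 9 Notch genes tested was called between them, where 24.6% of genes were, 6.07% higher and 18.5% lower. *Hes1* lay higher in both GFP-ve samples, with a log2 fold change of 0.34 (SE 0.14, adjusted p = 0.115 from limma and 0.00966 from edgeR, which called 20.8% of genes), against a median of -0.26 over all genes. Of 46 other pathway genes 17 were called lower and 1, *Rbpjl*, higher. *Rbpjl* had 45 and 62 CP20M in the GFP-ve samples and 8 and 3 in WT crypts. It passed the filter only through the former, so its call is no support for the direction. The 17 were the protease genes *Adam10*, *Aph1a*, *Aph1b*, *Psenen* and *Furin*, the ligand endocytosis genes *Mib1*, *Neurl1b* and *Neurl3*, the nuclear genes *Rbpj*, *Ep300*, *Kat2b*, *Spen* and *Tle4*, the regulators *Numb* and *Itch*, and *Atoh1* and *Spdef*. Their log2 fold changes ran from -1.81 for *Aph1b* to -0.40 for *Ep300*. Rescaling by the median of ratios brought the median of all genes to -0.07 and left 6 called lower, where 1432 of 15434 genes were.

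Over the 13 libraries of the table with sorted cells and Olfr78-GFP crypts, the Notch genes fell into several patterns, described by Pearson correlations of log2 values that carry no p because these libraries share sort, kit and depth. *Notch1* and *Hes1* were the most alike pair of the 10 (r = 0.904), followed by *Notch2* and *Lfng* (r = 0.831). The 3 genes most like *Hes1* among 18295 were *D10Jhu81e*, *9130208D14Rik* and *Gm45912* (r from 0.964 to 0.968), those most like *Notch1* were *Lrat*, *Prr5* and *Peak1*, those most like *Notch2* were *Epha4*, *Raver1* and *Gm43240*, and those most like *Notch3* were *Zfhx2*, *Trim3* and *Mtcl1*. *Jag1* was most like *Hspd1*, *Ripk1* and *Cox5b* (r up to 0.982), *Jag2* like *Gm37034*, *Gm30873* and *Gm14410*, *Dll1* like *Ndufa1*, *Gm30414* and *Gm42868*, *Hes6* like *Rpap2*, *Gm16153* and *Bcdin3d*, and *Lfng* like *Tpmt*, *Ppdpf* and *Gm26787*. *Dll4* was most like *Gm14207* (r = 0.839), *Gm26759* and *Zbtb12*. *Gm14207* shares 214 exon bases with *Dll4* on the opposite strand, and *Notch1*, *Notch3* and *Dll1* overlap opposite-strand genes by 1068, 488 and 867 exon bases. *Notch2* shares 541 exon bases with *Gm42820* on its own strand, which no strand setting separates. Whether strand was used in counting was not given in the sources used here, so reads of such pairs cannot be told apart.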

How the data were processed

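RNA of sorted colon cells and colon crypts was made into libraries with the Ovation SoLo kit. The authors mapped paired reads to GRCm38 with STAR, counted them per gene with HTSeq on the Ensembl release 90 annotation, scaled each library to a total of 20 M and rounded up. The deposited signal values of the sorted libraries and the deposited crypt values, a score in the sense of a normalized unit rounded to whole numbers, are these scaled reads. From them whole reads were recovered (99.8 to 99.98% of values whole within the rounding up), and the depths of 532704 to 10995342 reads and their 3-read floors follow.

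Genes with at least 40 scaled reads in at least 2 compared libraries were tested on log2(value + 10) with limma 3.58.1 with a trend and Benjamini-Hochberg adjustment over all genes tested, so fold changes of low genes are understated. edgeR 4.0.16 (quasi-likelihood) and DESeq2 1.42.0 on the recovered reads were alternatives, as were other pseudocounts, filters, scaling and leaving out libraries. Tests were checked on simulated reads with a fixed spread for all genes. Only genes at 40 or more in all libraries compared were changed there. The check thus does not cover low genes such as *Notch3* and *Jag2* in the sorted groups. Single ratios had exact permutation tests, and 95% Clopper-Pearson intervals cover counting error only. The Epcam+ve/GFP-ve samples are of 1 mouse, so their spread may be technical, and p-values measure only the spread between these samples.

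The members and gene lists were chosen with earlier results of these data known. One gene of the pathway list is not reported here. Named were all 10 members, pathway genes past the call rule, and for each member its 3 most correlated genes. Pathway genes named without a call, and the pairs singled out, were chosen after their values were seen. Sample titles share numbers between groups, but no label says that they mark the same animals.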

Additional observations from a re-analysis of the deposited data

How the results depend on the processing

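Of the 10 Notch genes, 1 was called between heterozygous pools and GFP-ve samples. The number was 2 with a pseudocount of 40, with 40 or more in all libraries, with edgeR and with the replicate block, 5 with all libraries of the table in one fit, and 0 with limma without a trend, with DESeq2 and at an adjusted p of 0.001 with a log2 fold beyond 2. Leaving out each library in turn gave 1 to 4, the highest without heterozygous pool 1, when *Notch1*, *Notch2* and *Jag2* were called with *Hes1*. All genes called moved too, from 23.8% to 34.9% in the one fit, 16.5% with DESeq2, 12.3% without a trend, 32.8% without heterozygous pool 1, and 25.7 to 27.4% under the 4 settings that gave 2 Notch genes. The 13 pathway genes became 8 with 40 or more in all libraries, 7 without a trend, 20 in the one fit, 0 at the stricter thresholds and 7 to 15 when single libraries were left out. The log2 fold change of *Dll4* was 0.025 after median-of-ratios rescaling, 0.14 with edgeR, 0.12 with DESeq2 and -0.55 to 0.53 over the left-out libraries, and that of *Hes6* was -0.39 to 0.56 over the latter. Between homozygous and heterozygous pools, 1 Notch gene (*Jag2*) and 2 pathway genes were called in the one fit of all libraries, where 4.69% of all genes were. *Jag2* entered that fit only through the heterozygous pools, where it is high. The criterion of the methods was met by 7 pathway genes, where 13.2% of the genes in its filter met it. Between homozygous pools and GFP-ve samples, 2 Notch genes were called in the one fit and 0 to 3 with single libraries left out, the highest without homozygous pool 2, when 45.3% of all genes were called (30.9% in the one fit). The pathway genes called there numbered 1 with edgeR, 2 with DESeq2, 13 in the one fit and 3 with the replicate block. They numbered 0 to 19 over the left-out libraries. Of all genes tested there, 3.43% were called with edgeR, 3.82% with DESeq2 and 6.34% with the replicate block.

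In KO against WT crypts, the 3 pathway genes became 0 with a pseudocount of 40 and in the one fit, 1 at an adjusted p under 0.05 with any fold, and 0 to 3 over the left-out libraries, with 0 without WT mouse 2. The share of all genes called in KO against WT crypts fell from 9.48% to 5.35% with a pseudocount of 40 and 0.113% in the one fit. With both lines combined, 0 to 2 pathway genes were called over the left-out libraries. The highest was without eKO mouse 1, when 6.92% of all genes were called, against 0.0243% with all libraries. Between GFP-ve samples and WT crypts, 1 Notch gene (*Hes1*) was called after rescaling, with edgeR and with DESeq2, and 0 to 4 over the left-out libraries, the highest without GFP-ve sample 1, when 44.7% of all genes were called. The 18 pathway genes there became 7 after rescaling, 0 with no filter, 3 without a trend, 9 with edgeR, 5 with DESeq2, 5 in the one fit and 5 to 28 over the left-out libraries. The share of all genes called there fell from 24.6% to 17.2% after rescaling, 8.77% without a trend and 10.8% in the one fit. It was 20.8% with edgeR and 11.3% with DESeq2, and 0 of 35855 genes were called with no filter. The cause of these moves was not tested.

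Same-numbered libraries deviated from their group means with correlations of -0.162 to 0.0614 in sorted cells and Olfr78-GFP crypts, and of 0.589 and 0.363 in the other line, with 2 pairs each, so the numbers were not taken as pairs. With the replicate block in KO against WT crypts (2 pairs), 2 Notch genes were called, *Hes1* at a log2 fold change of -0.76 and *Dll4* at -0.60, where 9.73% of all genes were. Pairing the sorted pools by crossed numbers, chosen after seeing the data, called 80 genes of all between the genotypes, against 1 with the block as numbered. With 2 libraries a group, the widest 95% interval of a Notch gene spanned 3.73 log2 units between heterozygous pools and GFP-ve samples, which limits what these depths can show.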

Other observations

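*Dlk1*, a Delta-like protein without the domain that activates Notch, was chosen after its values were seen. Its level was 18 and 0 CP20M in GFP-ve samples, 47 and 227 in heterozygous pools, and 76 and 47 in homozygous pools. In the Vil1Cre/+-Olfr78fx line it had 37, 81 and 116 CP20M in eControl crypts, 8 in eKO mouse 1 and 186 in the library labelled eKO mouse 2.

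*Hes5*, a Notch target in other tissues, had at most 24 CP20M in any library. *Hes2* had 38 and 25 CP20M in WT crypts and 58, 51 and 81 in eControl crypts, which stand in tables that were scaled separately.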
